A study of Drosophila melanogaster with 10 samples.

Results

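The comparison described here set Drosophila melanogaster S2 cells that received double-stranded RNA (dsRNA) from the 3' part of JIL-1 against S2 cells that received dsRNA from EGFP, a jellyfish gene that flies lack. It covered the 5 arrays of the labels' batch B, 3 with JIL-1 dsRNA (replicates 3, 4 and 5) and 2 with EGFP dsRNA (replicates 4 and 5), out of 10 arrays in the series. All cells were of the same line and were incubated with 10 µg of dsRNA, first without serum for 1 h. They were split on day 3 and harvested on day 7. The other 5 arrays, batch A, set dsRNA against the 5' end of JIL-1 (2 arrays) beside GST dsRNA (3 arrays), and are used only for comparison. The series calls its samples biological replicates, and p-values here measure the spread between them. One probe set stood for each gene, the one with the highest mean over the 5 arrays, and those with a mean above 4 on the log2 scale were tested. Of 18952 probe sets this left 6731, of which 5861 carried the name of 1 gene, 194 of several and 676 of none.

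JIL-1 is a chromatin-bound kinase that phosphorylates histone H3 at serine 10, mainly along active genes between the condensed bands of fly chromosomes. In males it is enriched on the X chromosome, where the MSL complex raises transcription, and loss of JIL-1 lets heterochromatin marks spread. S2 cells are a male embryonic line with features of plasmatocytes, the macrophage-like blood cells that engulf microbes and dying cells.

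The label of the cells was set against marker genes first. Of 14 plasmatocyte markers 12 were above the minimum level, and NimC4 and Sr-CII lay under 4 on all 5 arrays. Nplp2 (15.50 to 15.58), the collagen gene vkg (13.97 to 14.19) and Hml, hemolectin (12.1 to 12.7), were bright in both groups. Of the 4 fat body markers measured, Lsp2, Fbp1, Fbp2 and Yp1, all lay under 4 on all 5 arrays, as did 4 of the 5 testis and germ line markers. Among neuronal and glial markers repo and nSyb lay under 4, as did the muscle markers Mlc2 and up. Other members of these lists were expressed. The glial gene moody lay at 10.84 to 11.41, the synaptic gene brp at 6.46 to 6.80 and the muscle gene bt at 8.07 to 8.60. Median values of the tested rows were 9.37 to 9.41 in batch B. Values under 4 have no dependable order, so for a gene with any such value the change is given as a lower bound, computed with values under 4 raised to 4.

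JIL-1 itself, on arm 3L, measured 7.53 and 7.34 on the log2 scale in the EGFP controls and 5.66, 5.78 and 5.84 with JIL-1 dsRNA. Every JIL-1 dsRNA array lay below both controls, and the smallest gap between the groups was many times the spread within either. The level fell by 1.67 (SE 0.09, limma adjusted p = 0.000231), 3.19-fold lower. The 3 GST controls of batch A measured 5.79, 5.95 and 5.66, so the level left after the 3' dsRNA overlapped that of the untargeted cells of the other batch. Array quality measures also differed between the batches, as given below. The position of the probes relative to the dsRNA was not known. An exact permutation test of 3 against 2 arrays has 10 arrangements and cannot go below a p of 0.1, so the p-values given are those of the limma fit across all tested rows.

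Across the 6731 tested rows, 1416 changed at an adjusted p under 0.05, 21.0% of all. The calls were 627 rises, 9.32%, and 789 falls, 11.7%, and the median change of all rows was 0.01. The groups did not overlap in 3675 rows, 54.6%, so with 3 against 2 arrays separation alone is common. All 1416 called rows were among these, so separation of the groups in a called gene adds nothing to its call. The count depends on single arrays: it was 1294 without JIL-1 replicate 3, 717 without JIL-1 replicate 4, 1241 without JIL-1 replicate 5, 519 without control replicate 4 and 481 without control replicate 5. The rises numbered 259 and the falls 458 without JIL-1 replicate 4, 176 and 343 without control replicate 4 and 137 and 344 without control replicate 5. Of the 1416 rows 390 were called with any 1 array left out, and of the 187 that changed at least 2-fold 166 were (88.8%).

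Large changes were mostly falls. At least 2-fold, 31 rows rose and 156 fell. At least 4-fold, 4 rose and 41 fell, and at least 8-fold, 2 rose and 10 fell. With values under 4 raised to 4 the last pair became 2 rises and 5 falls. The excess of large falls lay at the lower levels of the mean over the 5 arrays. That mean includes the JIL-1 dsRNA arrays, so a large fall moves its own row to a lower level. For example, nahoda had a mean of 8.73 in the controls and 6.44 over the 5 arrays. The sets therefore do not show the levels in the controls. When the rows were divided by mean level into 5 sets, the falls of at least 2-fold numbered 98 in the lowest set (levels 4.0 to 7.67) and, going up in level, 30, 16, 10 and 2, while the rises numbered 25, 3, 2, 1 and 0. The difference between the 3' and 5' actin probe sets of the array, a measure of RNA or labelling quality, also moved with the group: it was 1.84 and 2.01 in the controls and 1.72, 1.72 and 1.54 with JIL-1 dsRNA. The same difference for eIF-4a was 3.08 and 3.14 against 2.82, 2.92 and 2.74, while that for GAPDH overlapped (1.23 and 1.54 against 1.33, 1.43 and 1.27). Their part in the changes was not tested.

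**Figure D1:**
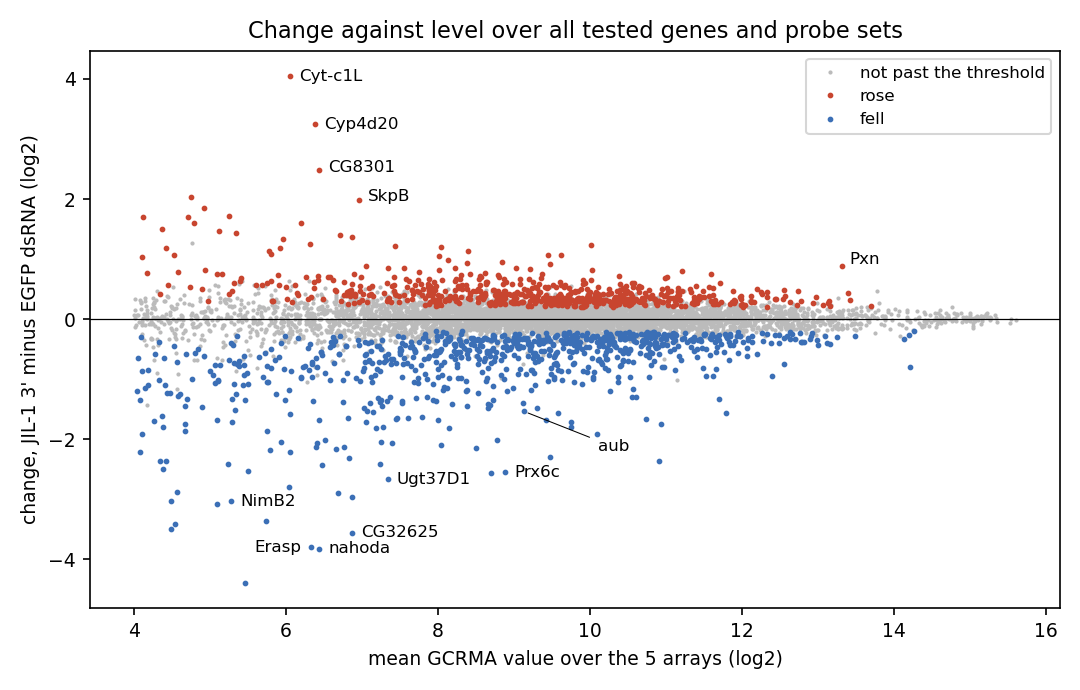
Change of each tested row (JIL-1 3' dsRNA minus EGFP dsRNA, log2, vertical axis) against its mean GCRMA value over the 5 arrays (log2, horizontal axis), with rows past an adjusted p of 0.05 in red where they rose and blue where they fell. Large falls outnumber large rises and crowd toward the lower levels, in part because a large fall lowers the mean of its own row. The changes drawn are as fitted, with values under 4 kept as measured.

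The gene that rose most was Cyt-c1L, a paralog of the cytochrome c1 subunit of respiratory complex III. It measured 3.90 and 3.34 in the controls, at the dim end of the scale, and 7.83, 7.87 and 7.29 with JIL-1 dsRNA. Its level was at least 12.7-fold higher (limma adjusted p = 0.000307). Cyp4d20, a cytochrome P450, measured 4.17 and 4.69 against 7.96, 7.56 and 7.51 and rose by 3.24 (SE 0.20, adjusted p = 0.000367), 9.47-fold. SkpB, a relative of the Skp1 adaptor of SCF ubiquitin ligases, measured 5.96 and 5.58 against 7.87, 7.79 and 7.60, a rise of 1.99 (SE 0.14). In each of these 3 genes all JIL-1 dsRNA arrays lay far above both controls. CG8301 rose by 2.48 (SE 0.25), from 5.39 and 4.49 to between 7.39 and 7.46, and its 2 controls lay farther apart than its 3 JIL-1 dsRNA arrays. Acer, a relative of the peptidase ACE, rose by 1.60 (SE 0.09) from 5.10 and 5.37 to 6.87, 6.77 and 6.85.

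Among the 15 named genes with the largest rises, 8 had at least 1 control value under 4. They were Cyt-c1L, the zinc finger gene l(3)neo38 (at least 2.96-fold), Asph, an aspartyl beta-hydroxylase gene (at least 3.15-fold), Chsy, a chondroitin synthase gene on the X (at least 3.23-fold), CG9801 (at least 2.62-fold), CG4586 (at least 2.68-fold), CG4404 (at least 1.74-fold) and alpha-Est3, an esterase gene (at least 1.95-fold). CG4404 and alpha-Est3 lost their call in 1 and 2 of the 5 comparisons with an array left out. Cyp4d20, SkpB, CG8301 and Acer, given above, had no control value under 4. The remaining genes of the 15 were wdp, a leucine-rich repeat membrane protein gene (2.78-fold), the lipid transfer particle gene Apoltp (2.70-fold) and CG7860 (2.63-fold). Their adjusted p-values were 0.00746 or lower.

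The fall that led the named genes was that of nahoda. It measured 8.75 and 8.71 in the controls and 5.24, 4.70 and 4.77 with JIL-1 dsRNA. It fell by 3.83 (SE 0.16, limma adjusted p = 0.000135), 14.2-fold. Erasp measured 8.54 and 8.68 against 4.88, 5.18 and 4.35 and fell by 3.80 (SE 0.23). CG32625 measured 9.0 in both controls and 5.28, 5.48 and 5.57 with JIL-1 dsRNA, 11.8-fold lower. All 3 were well above the dim end in the controls, and the groups lay far apart. One probe set with no gene name listed fell farther still, by 4.39.

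Of the other large falls, the midkine relative miple2 measured 8.39 and 8.45 against 5.80, 5.38 and 5.40 and fell by 2.90 (SE 0.14), 7.45-fold. The serine protease gene flz fell by 2.79 (SE 0.11), from 7.60 and 7.83 to 4.77, 5.01 and 4.98. The calcium channel gene cac, which codes for the pore subunit of a voltage-gated channel, went from 6.34 and 6.25 to under 4 on all 3 arrays, at least 4.91-fold lower. All 3 genes were separated between the groups. Ugt37D1, a UDP-glycosyltransferase gene, measured 8.93 and 8.94 against 6.30, 6.39 and 6.13 and fell by 2.67 (SE 0.09). Prx6c, a peroxiredoxin gene, was the brightest of the 15 in the controls, with 10.42 and 10.41 against 7.90, 7.92 and 7.76, and fell by 2.55 (SE 0.07, adjusted p = 5.55e-05). The P450 gene Cyp28a5 ended under 4 on all 3 arrays and was at least 4.88-fold lower.

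The remaining genes among the 15 largest falls were CG40006 (at least 5.98-fold), CG33181 (at least 5.96-fold), CG15695 (at least 9.71-fold), CG32985 (at least 7.67-fold), NimB2 and CG13250 (5.76-fold). The adjusted p-values of the 15 ran no higher than 0.00228, and all 15 were called with any 1 array left out.

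**Figure D2:**
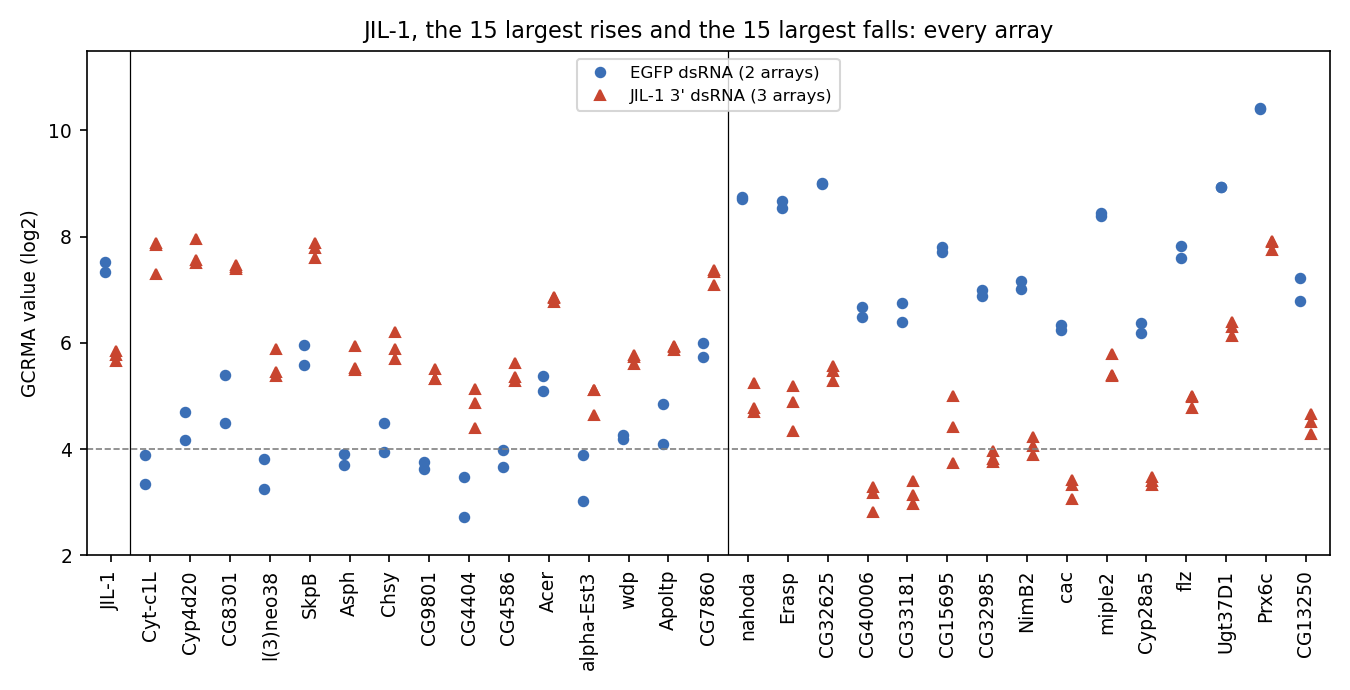
GCRMA value (log2) of JIL-1 and of the genes with the largest rises and falls, with 1 point for each array (blue circles for EGFP dsRNA, red triangles for JIL-1 3' dsRNA) and a dashed line at 4. The 2 groups do not overlap in any gene drawn, which was a condition for choosing the rises and falls. Several rises start, and several falls end, under 4.

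The lists of genes below are read against the share of all tested rows that rose (9.32%) or fell (11.7%) and against the median change of all rows, 0.01. The largest shift among lists with at least 5 tested members was that of the Nimrod and scavenger receptors, the surface and secreted proteins with which plasmatocytes recognise particles. The lists were chosen with earlier results of these data known, so this rank is a description only. Of the 23 receptor genes listed, 22 had a probe set of their own and 10 were above the minimum level. Of these 10 tested members 7 fell and 0 rose in the limma fit, with a median change of -1.10. At an unadjusted p under 0.05, which 2459 of all rows passed, 8 were lower and 0 higher, and 6 or 7 fell with any 1 array left out. NimB2, a secreted member, measured 7.01 and 7.17 against 4.23, 4.06 and 3.89 and was at least 7.99-fold lower. NimC1, a phagocytosis receptor for bacteria, measured 7.33 and 6.84 against 4.76, 5.36 and 4.62 and fell by 2.18 (SE 0.25). Sr-CI, a class C scavenger receptor, measured 10.97 and 10.997 against 9.71, 9.80 and 9.85 and fell by 1.20 (SE 0.07). In all 3 every JIL-1 dsRNA array lay below both controls.

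NimB5 fell by 1.19 (SE 0.08), from 9.64 and 9.59 to between 8.30 and 8.49, and NimB4 by 1.05 (SE 0.17). The changes in drpr, an engulfment receptor for dying cells (-0.55, SE 0.06), and in eater, a receptor for bacteria (-0.47, SE 0.12), were smaller, and eater kept its call in 1 of the 5 comparisons with an array left out. NimB1 did not pass, with a change of -1.16 and an adjusted p of 0.083. The CD36 relatives crq (0.13, adjusted p = 0.309) and pes (0.15, adjusted p = 0.181) did not pass either.

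The wider plasmatocyte list, which shares some of these genes, held 6 falls and 1 rise among 12 tested members, with a median of -0.37. Hml changed by -0.39 but lost its call whichever array was left out. Pxn, which codes for the matrix enzyme peroxidasin, rose: it measured 12.73 and 12.83 against 13.70, 13.61 and 13.68, an increase of 0.88 (SE 0.06). A second, dimmer Pxn probe set did not follow (-0.16, adjusted p = 0.544). The collagen genes did not pass, with a change of 0.05 for Col4a1 (adjusted p = 0.563) and 0.14 for vkg (adjusted p = 0.164). The summed linear signal of all 14 plasmatocyte markers overlapped between the groups, at 113451 to 114525 in the controls and 111578 to 116453 with JIL-1 dsRNA. That sum is mostly of 3 bright genes, Nplp2, vkg and Col4a1, which made up 69.9% of it, so it says little of the dimmer members that fell. Fewer cells of a type and less RNA per cell cannot be told apart in bulk samples.

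Markers of the other blood cell types were tested beside these. Both prophenoloxidase genes of crystal cells, whose products make melanin, fell. PPO2 measured 7.55 and 7.59 against 6.83, 6.73 and 6.93 and fell by 0.74 (SE 0.08), and PPO1 changed by -0.91 (SE 0.18). Of the 4 crystal cell markers lz and peb lay under 4 on all 5 arrays, and the summed signal was 323 to 343 in the controls and 188 to 207 with JIL-1 dsRNA. PPO1 kept its call in 2 of the 5 comparisons with an array left out. Of 4 tested lamellocyte markers PPO3 (-0.61) and CG15347 (-1.03) fell and the integrin gene mys rose (0.23), but PPO3 kept its call in 2 of those 5 comparisons and mys in none. The lamellocyte markers atilla and ItgaPS4 lay under 4, and the summed signal of that list overlapped, at 4975 to 5104 and 5082 to 5273. The glial gene moody rose by 0.52 and the synaptic gene brp fell by 0.30, the latter called in 2 of the 5 comparisons. The summed signal of the 5 neuronal and glial markers was 2201 to 2227 in the controls and 2798 to 3070 with JIL-1 dsRNA, and was mostly moody. Of the 3 tested members of that list, moody, elav and brp, 1 was higher and 2 lower, with a median change of -0.30, and elav was not called. The muscle gene bt rose by 0.40, called in 3 of the 5 comparisons, and as Mlc2 and up lay under 4 the summed muscle signal, 278 to 320 against 385 to 397, was nearly all bt. Among testis and germ line markers aly, bgcn, can and vas lay under 4, and the summed signal of the 5, near the lower end of the scale, was 23.1 to 23.2 against 30.03 to 42.7. The other marker, bam, was the brightest of them but its mean did not pass the minimum level, so 0 of the 5 were tested. The part of such cells in the changes was not tested.

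Immune genes were called lower in 10 of 23 tested members and higher in 0 by limma, with a median of -0.29, and 12 were lower and 1 higher at an unadjusted p under 0.05. They included genes of both NF-kappa-B pathways of the fly. Rel, the transcription factor of the Imd pathway, measured 12.25 and 12.22 against 11.66, 11.39 and 11.60 and fell by 0.69 (SE 0.09). PGRP-LF, an inhibitor of the same pathway, measured 9.70 and 9.77 against 8.91, 8.80 and 8.95 and fell by 0.85 (SE 0.07). The groups of arrays did not overlap in either gene, but Rel kept its call in 3 of the 5 comparisons with an array left out. The thioester protein gene Tep4 fell by 0.61 and the Imd adaptor gene Tab2 by 0.44, the latter called in 3 of those 5. The Toll pathway genes dl (-0.38) and Myd88 (-0.34), the Imd pathway genes pirk (-0.63) and PGRP-LE (-0.38), the recognition gene GNBP2 (-0.57) and the antimicrobial peptide gene Mtk (-0.98) kept their call in at most 1 of the 5 comparisons with an array left out. The number of falls in the list was 6 without JIL-1 replicate 3 or 5, 4 without JIL-1 replicate 4 and 3 without either control.

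**Figure D3:**
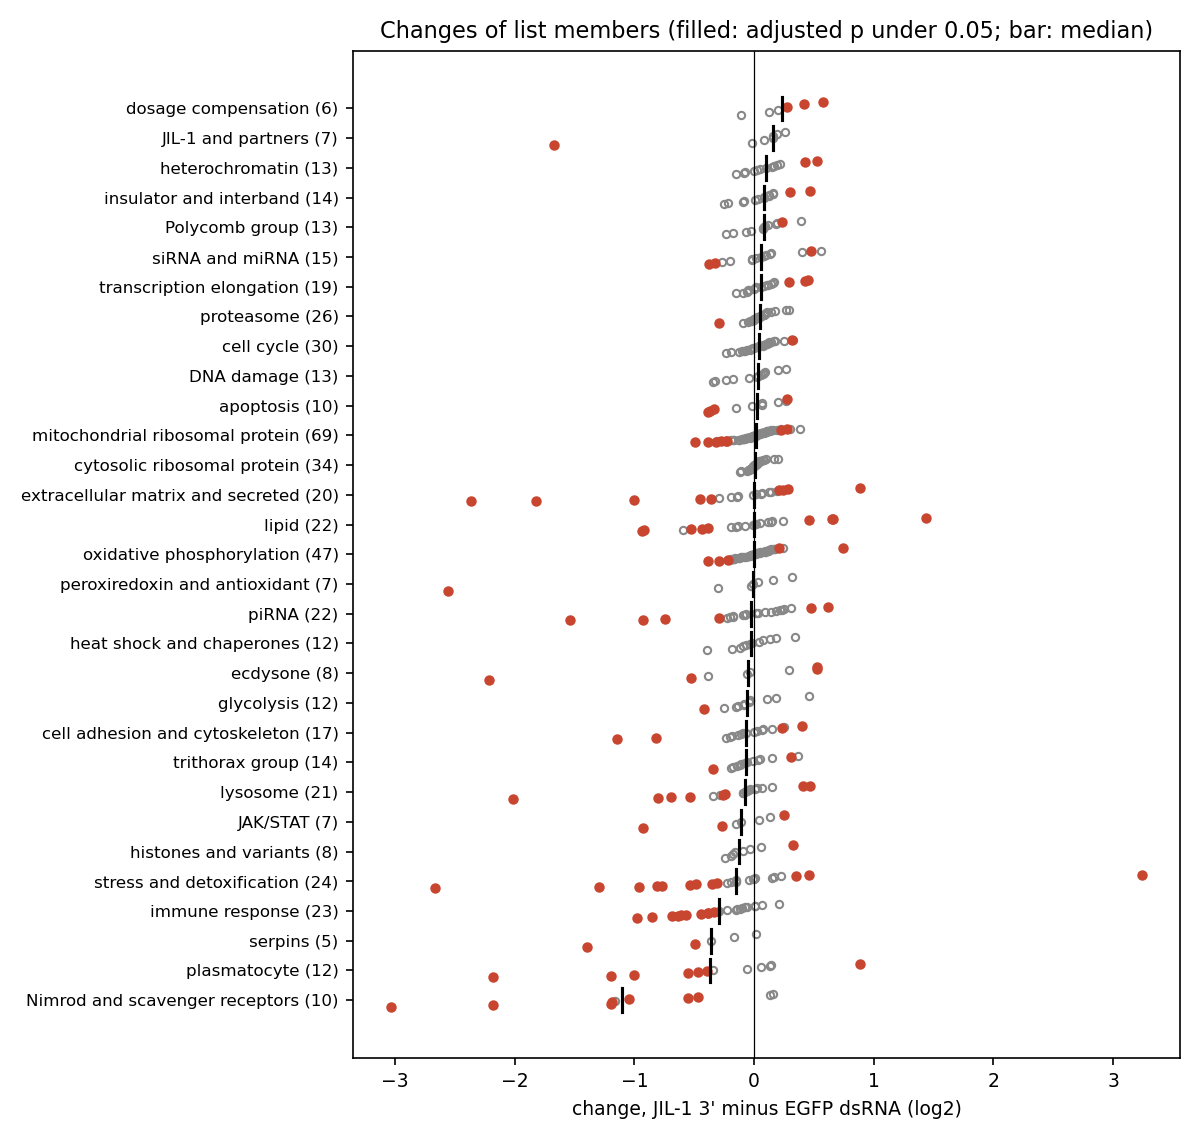
Change with JIL-1 3' dsRNA (log2) of each tested member of the lists with at least 5 tested (number in parentheses), 1 point per gene, filled where it passed an adjusted p of 0.05, with a bar at the median of each list. Nimrod and scavenger receptors lie farthest below the median of all tested rows, 0.01, and the ribosomal protein and proteasome lists lie close to it.

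Genes of stress and detoxification fell more often than they rose. Of 24 tested members 9 fell and 3 rose, with a median of -0.15. Besides Ugt37D1 and Cyp4d20, described above, the P450 gene Cyp28d1 measured 8.62 and 8.64 against 7.16, 7.44 and 7.41 and fell by 1.30 (SE 0.10). Cyp9f2, another P450 gene, measured 10.60 and 10.64 against 9.76, 9.58 and 9.65 and fell by 0.96 (SE 0.07). Of the glutathione transferases GstE7 fell by 0.81 (SE 0.08) and GstD3 rose by 0.46 (SE 0.06). The 9 falls became 6 without JIL-1 replicate 4, 5 without control replicate 4 and 4 without control replicate 5. Among 7 peroxiredoxin and antioxidant genes Prx6c was the only one called. Of 12 heat shock and chaperone genes 0 were called by limma and 3 had an unadjusted p under 0.05, and the 2 with the smallest p were stv (-0.39, adjusted p = 0.0608) and Hsp26 (0.35, adjusted p = 0.0644).

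Of 21 lysosome genes 6 fell and 2 rose, with a median of -0.08. LManI and LManII code for alpha-mannosidases, which trim sugars from glycoproteins. LManI measured 7.75 and 7.70 against 5.78, 5.52 and 5.82 and fell by 2.02 (SE 0.10). LManII measured 10.80 and 10.90 against 10.09, 10.17 and 10.21 and fell by 0.69 (SE 0.07). Mitf, a transcription factor known for its control of lysosome genes, changed by -0.80 (SE 0.13), and Vha100-2, a subunit of the proton pump, by -0.53. The protease gene cathD moved the other way, by 0.46 (SE 0.07), and its call held in 3 of the 5 comparisons with an array left out. The falls numbered 4 without JIL-1 replicate 4, JIL-1 replicate 5 or control replicate 5 and 3 without control replicate 4, and the rises 0 or 1 without any of the 5 arrays.

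Among genes for matrix and secreted proteins 5 of 20 fell and 4 rose, with a median of 0.00. Swim, a secreted protein that binds Wingless, measured 5.93 and 5.57 in the controls and 3.39 on each JIL-1 dsRNA array, at least 3.37-fold lower. The clotting protein gene fon measured 8.27 and 8.29 against 6.66, 6.35 and 6.35 and fell by 1.82 (SE 0.11). The papilin gene Ppn measured 10.04 and 10.21 against 9.18, 9.09 and 9.11 and fell by 1.00 (SE 0.08). Pxn stood among the rises, which fell to 2 without JIL-1 replicate 3 and to 1 without any of the other 4 arrays. The falls were 3 without JIL-1 replicate 4 or either control. Of 5 tested serpins, inhibitors of serine proteases, Spn77Ba (-1.40, SE 0.09) and Spn55B (-0.50, SE 0.07) fell, and without either control Spn77Ba alone was called (1 fall).

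Lipid genes split. Of 22 tested members 5 fell and 4 rose, with a median of 0.00, and 2 of each were called without either control. The perilipin gene Lsd-1, whose product coats lipid droplets, changed by -0.94 (SE 0.15), the acyl-CoA synthetase gene bgm by -0.92 (SE 0.11) and the lipase gene Lip4 by -0.53 (SE 0.06). Apoltp rose as given above, Mtp, a lipid transfer protein needed to load lipoproteins, rose by 0.66 (SE 0.07) and the carnitine palmitoyltransferase gene whd by 0.65 (SE 0.11). Mtp measured 8.13 and 8.15 against 8.89, 8.83 and 8.70.

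In the piRNA pathway, the small RNA system known for silencing transposons in the germ line, 4 of 22 tested genes fell and 2 rose, with a median of -0.02. The Piwi-family gene aub measured 10.05 and 10.06 against 8.45, 8.58 and 8.52 and fell by 1.54 (SE 0.06, adjusted p = 0.000126), 2.91-fold. The Tudor domain gene SoYb fell by 0.93 (SE 0.06) from 7.77 and 7.69 to 6.81, 6.81 and 6.79. The products of rhi and del are known to act together at piRNA clusters. The HP1 relative rhi measured 8.54 and 8.50 against 9.19, 9.13 and 9.09 and rose by 0.62 (SE 0.06), while del measured 7.97 and 8.01 against 7.13, 7.21 and 7.38 and fell by 0.75 (SE 0.09). Hen1, a methyltransferase for small RNAs, changed by 0.47 and was called in 1 of the 5 comparisons with an array left out. The rises were 4 without JIL-1 replicate 3 and 1 without any of the other 4 arrays.

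The chromatin lists, which hold the genes JIL-1 is best known to act with, mostly held few calls, with a larger share of rises in the dosage compensation list. Of 7 tested members of the list of JIL-1 and its partners only JIL-1 itself passed. Its partner Jasper changed by 0.16 (adjusted p = 0.0976) and Chro, the chromodomain protein Chromator, by 0.16 (adjusted p = 0.325). In the dosage compensation list 3 of 6 rose and 0 fell by limma (4 and 0 at an unadjusted p under 0.05), with a median of 0.24. The limiting subunit msl-2 measured 9.24 and 9.31 against 9.75, 9.98 and 9.83, a rise of 0.57 (SE 0.08, adjusted p = 0.00746). The chromodomain subunit msl-3 changed by 0.42 (SE 0.09) and the helicase mle by 0.28 (SE 0.06), while the acetyltransferase gene mof did not pass (-0.11, adjusted p = 0.301). The 3 rises became 2 without JIL-1 replicate 3 or 5, 1 without JIL-1 replicate 4 and 0 without either control.

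Heterochromatin genes had 2 rises among 13, HP5 (0.53, SE 0.06) and the demethylase gene Su(var)3-3 (0.43, SE 0.08), and 1 without control replicate 5. Insulator genes had 2 among 14, su(Hw) (0.47) and BEAF-32 (0.30). These became 1 without JIL-1 replicate 3 or 4 and 0 without either control. Polycomb genes had 1 rise among 13, Sfmbt (0.23), which was lost whichever array was left out. Trithorax genes had 1 rise, osa (0.31), and 1 fall, Dpy-30L1 (-0.35), among 14. The call of osa was lost whichever array was left out, and Dpy-30L1 kept its call in 1 of the 5 comparisons. Among 19 elongation genes the kinase gene Cdk12 (0.45), the super elongation complex gene ear (0.42) and Nelf-E (0.29), a subunit of the pausing factor, rose. These 3 rises became 1 without any JIL-1 dsRNA array or control replicate 4 and 0 without control replicate 5. The medians of these 5 lists lay between -0.07 and 0.10.

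Growth and housekeeping lists held few calls. Of 34 cytosolic ribosomal protein genes 0 passed limma's threshold and 2 an unadjusted p under 0.05, with a median of 0.00, and the pair with the smallest p were RpL7-like (0.20, adjusted p = 0.0564) and RpLP0-like (0.17, adjusted p = 0.136). Of 26 proteasome genes (median 0.05) Rpt3 fell (-0.29), and of 30 cell cycle genes (median 0.04) Dp rose (0.32). The 8 histone genes and variants had a lower median, -0.13, with 6 of 8 changes below 0, while mute, a histone locus protein, rose (0.32). These 3 kept their call in at most 2 of the 5 comparisons with an array left out. Of 13 DNA damage genes 0 passed in limma and 2 had an unadjusted p under 0.05, mus304 (-0.35, adjusted p = 0.0626) and Ku80 (-0.33, adjusted p = 0.0645). Of 69 mitochondrial ribosomal protein genes 6 fell and 2 rose, with a median of 0.01. The falls became 4, 1 and 3 without JIL-1 replicate 3, 4 and 5 and 0 without either control, and the rises 1, 0, 3 and again 0. Among 47 oxidative phosphorylation genes 3 fell and 2 rose. ATPsyndelta, an ATP synthase subunit, led them with 11.20 and 11.08 against 12.01, 11.85 and 11.81 (0.74, SE 0.08), and it alone among the rises was called with any 1 array left out. The falls were 1 without JIL-1 replicate 4 and 0 without either control. Of 12 glycolysis genes, which had a median of -0.06 with 9 changes below 0, Gpdh1 fell (-0.42), with its call kept in 1 of the 5 comparisons.

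Signalling lists gave single genes. In the JAK/STAT list 2 of 7 fell and 1 rose. The gene et, whose product restrains the receptor, measured 9.44 and 9.33 against 8.54, 8.43 and 8.40 and fell by 0.93 (SE 0.07). The pathway target vir-1 changed by -0.27 and the receptor gene dome by 0.25, and without JIL-1 replicate 4 or either control 1 fall was left. No rise was called there with an array left out. In the ecdysone list 2 of 8 fell and 2 rose. Eip93F measured 5.43 and 5.39 in the controls and under 4 on all 3 JIL-1 dsRNA arrays, at least 2.65-fold lower, and MsrA fell by 0.52 (SE 0.08). The rises were those of Hr39 (0.53) and br (0.53), and for each of these 1 of 4 probe sets had a change of the opposite sign. The falls were 1 without either control and 3 without JIL-1 replicate 5, and the rises 0 without JIL-1 replicate 4 or control replicate 5 and 1 without control replicate 4. Among 10 apoptosis genes the Bcl-2 relative Debcl (-0.33) and the caspase genes Dronc (-0.37) and Dcp-1 (-0.38) fell and egr, the fly tumour necrosis factor, rose (0.28), and no more than 1 of these 4 was called without JIL-1 replicate 4 or either control. Of 17 adhesion and cytoskeleton genes the integrin genes Itgbn (-0.82, SE 0.06) and scb (from 4.40 and 5.25 to under 4 on all 3 arrays) fell and mys and msn (0.40) rose. Of these 4 Itgbn kept its call with any 1 array left out, scb in 1 of the 5 comparisons and the others in none. With values under 4 raised to 4, scb changed by -0.83 and did not pass (adjusted p = 0.0547). Of 15 siRNA and miRNA genes Hen1 rose, as given above, and Trax (-0.37) and Ranbp21 (-0.32) fell. Trax kept its call in 3 of the 5 comparisons and Ranbp21 in none.

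Because JIL-1 is known on the male X, changes were set out by chromosome arm. The 993 X-linked genes had a median change of -0.06 and the 4808 autosomal genes on arms 2L, 2R, 3L and 3R a median of 0.03. On the X 7.55% rose and 14.5% fell, against 9.98% and 10.8% on the autosomes. The X median minus the autosome median was -0.09, against -0.115 in batch A. Each JIL-1 dsRNA array of batch B taken against the mean of the controls gave -0.08, -0.09 and -0.09. The SD of the gap over these 3 arrays was 0.0075. These 3 gaps share the same controls, so their SD leaves out the spread of the controls. The fitted gap was -0.078 without control replicate 4 and -0.101 without control replicate 5. Genes are not independent replicates, so no p is given. Falls of at least 2-fold made up 1.61% of X-linked and 2.43% of autosomal genes. The 40 genes of chromosome 4 had a median of -0.12, against 0.03 in batch A. The 3 JIL-1 dsRNA arrays of batch B differed from one another there, at -0.29, -0.16 and 0.09.

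**Figure D4:**
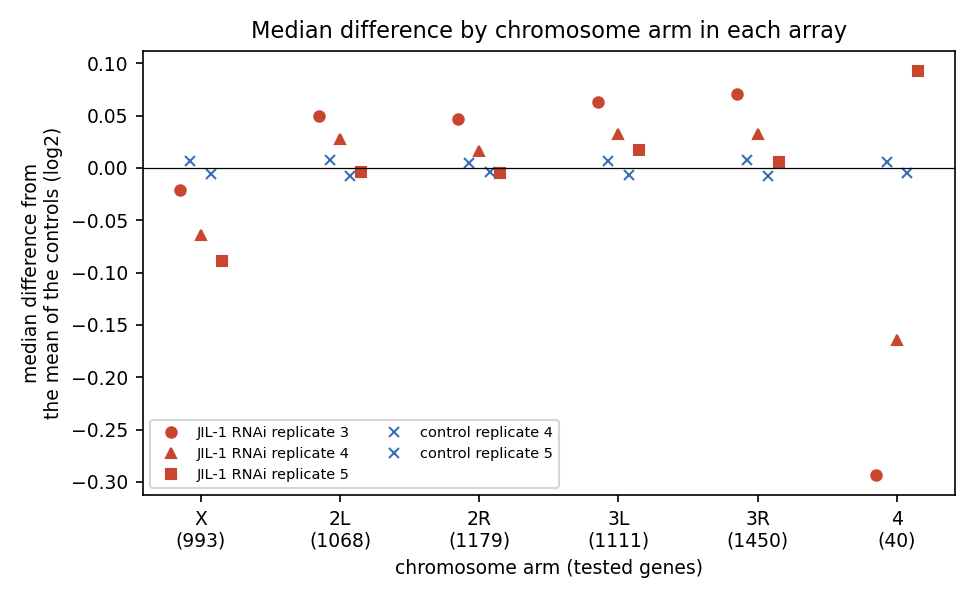
Median difference from the mean of the 2 EGFP controls (log2) over the tested genes of each chromosome arm (number in parentheses), with a red symbol for each JIL-1 3' dsRNA array and a blue cross for each control. The X point of each JIL-1 dsRNA array lies below its points for the 4 large autosomal arms, and the chromosome 4 points of these arrays range from -0.29 to 0.09.

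Genes that fell had a fall in an adjacent tested gene more often than all tested genes did. Adjacent means next in order among tested genes, so untested genes can lie between. Of 672 falls on an arm, 255 (37.9%) had a fall in an adjacent tested gene, against 21.2% of all 5841 tested genes on an arm. For falls of at least 2-fold the share was 65 of 134 (48.5%), and for rises it was 139 of 559 (24.9%) against 18.0%. Runs of neighbours, picked out after their values were seen, included the Nimrod genes NimB2, NimB4 and NimB5 on 2L and NimC1, Cyp28a5 and bgm on the same arm. On 3R, CG6040 and the P450 genes Cyp12a5 and Cyp12a4 lay in a run, with Cyp12a5 at 9.53 and 9.52 in the controls and 8.12, 8.11 and 8.33 with JIL-1 dsRNA. On the X, Sclp (-0.47), Pdzd8 (-2.21) and cac lay in a run. Pdzd8 measured 7.41 and 7.35 against 5.41, 4.98 and 5.12. Related neighbours can share sequence and probes, and overlaps between genes were not examined.

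The changes were then set beside those with the other dsRNA, whose controls are separate arrays. In a fit of all 10 arrays 1179 rows were called in batch B (17.5%) and 1874 in batch A (27.8%). Both batches called 778, of which 771 had the same direction, 65.4% of the batch B calls and 41.1% of the batch A calls. Of the 187 rows that changed at least 2-fold in the batch B fit 183 (97.9%) had the same sign in batch A, against 74.9% of all tested rows. Across the 6731 rows the changes in both batches had a Pearson r of 0.77 and a Spearman rho of 0.68, given as a description over rows that share arrays. Erasp changed by -3.80 and -3.74 and JIL-1 by -1.67 and -1.45 (adjusted p of the difference = 0.961 and 0.504). With values under 4 raised to 4, as its controls require, Cyt-c1L changed by at least 3.67 in batch B and 4.02 in batch A.

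The difference between the batches passed an adjusted p under 0.05 in 90 rows, 1.34%. Of these 30 had opposite signs in the batches, 31 had the same sign and lay farther from 0 in batch B, and 29 had the same sign and lay nearer to 0 there. Batch, the part of JIL-1 targeted and the control dsRNA changed together and cannot be told apart. The count was 48 without JIL-1 replicate 4, 55 without JIL-1 replicate 5, 38 without control replicate 4 and 30 without control replicate 5. The controls of the batches differed as well, in 4187 of the 6731 rows and in 79 of the 90. CG3036 is an example of the first kind: it measured 9.53 and 9.55 in the EGFP controls and 8.04, 8.10 and 8.19 with the 3' dsRNA, and 8.91, 8.89 and 8.79 in the GST controls and 9.08 and 9.06 with the 5' dsRNA. The difference of the changes was -1.63 (adjusted p = 0.000234).

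Starting levels differed in the genes of the receptor list too. NimC1 measured 7.33 and 6.84 in the EGFP controls but 11.81, 11.62 and 11.85 in the GST controls, from which it went to 9.37 and 9.94 with the 5' dsRNA. NimB2 measured 10.12, 9.93 and 10.00 in the GST controls and 7.50 and 7.21 with the 5' dsRNA. The EGFP controls of batch B thus measured lower in both genes than the knockdown arrays of batch A, and within each batch the knockdown arrays lay below the controls. The 3' minus 5' actin difference was 1.54 to 2.01 on the arrays of batch B and 0.54 to 0.66 on those of batch A. For eIF-4a it was 2.74 to 3.14 and 1.33 to 1.58. The part of RNA or labelling quality in the levels of the batches was not tested. The median change of the receptor list was -1.10 in batch B and -0.87 in batch A. In limma's test of the difference 0 of its 10 members passed the adjusted threshold. As only 1.34% of all rows did, that says little of 10 genes. At an unadjusted p under 0.05, which 995 of all rows had, the members included NimB5 (difference -0.54) and drpr (0.38).

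**Figure D5:**
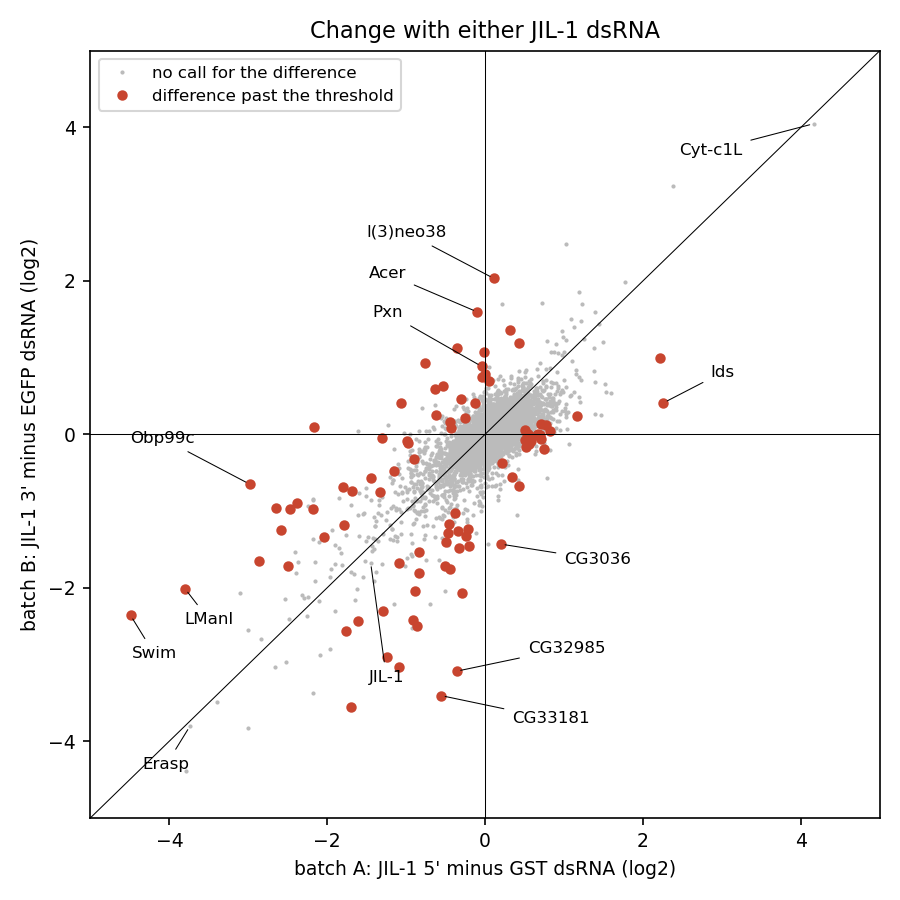
Change with the 3' dsRNA against EGFP (log2, vertical axis) and with the 5' dsRNA against GST (log2, horizontal axis) for each tested row, with the 90 rows whose difference passed an adjusted p of 0.05 in red and the line of equal change drawn. Changes are as fitted, with values under 4 kept as measured. Erasp and JIL-1 lie near the line, and CG33181, CG32985, Swim and Obp99c far from it.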

How the data were processed

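RNA of 10 S2 cell samples was measured on Affymetrix Drosophila arrays. The deposited table holds log2 values that the authors made with GCRMA, per the submitters' processing notes. GCRMA adjusts for background from the probes' base composition, scales arrays to one another and combines the probes of a set. Its version was not given in the sources used here, nor whether the arrays of both batches were treated jointly. Values ran from 2.20 to 15.7, with 50.5% to 51.8% of an array's probe sets within 0.01 of the lowest, so changes of dim genes are compressed. The number of arrays limits the precision.

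In the platform annotation 13647 of the 18952 probe sets named 1 gene, 402 several and 4720 none, and 183 were array controls. Of the named, 13544 matched a gene of assembly Release 6, which gave symbols, arms and gene order. Linear models of the 5 arrays of batch B used limma 3.58.1 (R 4.3.3, empirical Bayes, two-sided tests), with Benjamini-Hochberg adjustment over 6731 rows and a threshold of 0.05. The difference between batches came from a fit of 4 group means over 10 arrays. No arrays were duplicates: the SD of the difference between arrays of the same group was 0.154 to 0.266. Replicate numbers 4 and 5 did not pair the samples: deviations from the group means correlated at -0.037 and -0.035.

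The rule for named genes took JIL-1, the 15 named genes past the threshold that rose most and the 15 that fell most without overlap of the groups, up to 4 called members of each list by smallest p (or 2 where none passed), and 5 genes on each side of the difference between batches. Other genes were named for completeness of a list or as neighbours. The genes, the 37 lists and the tests were chosen with earlier results of these data known. The fit was tested on simulated data. Alternatives were other filters, probe set choices, normalizations, weights and variance models, the replicate block and leaving out each array.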

Additional observations from a re-analysis of the deposited data

Results flagged for a closer look

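The changes of 90 rows differed between the batches in limma's test of the difference itself, and 22 of the named genes were among them. In each case below the value is the change in batch B minus the change in batch A as fitted, on the log2 scale, and the part of batch, dsRNA and control dsRNA in it cannot be told apart.

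Some genes rose in batch B and had a change of 0.11 or lower in batch A. These were l(3)neo38 (1.92, adjusted p = 0.0143), Acer (1.69, adjusted p = 0.00333), CG5080 (1.48), PCNA2 (1.08), Pxn (0.93), ATPsyndelta (0.78), cathD (0.77) and bt (0.53). With values under 4 raised to 4 the difference was 1.56 for l(3)neo38, which lay under 4 in both EGFP controls and on all 5 arrays of batch A, and 0.96 for PCNA2. In Pxn the EGFP controls, at 12.73 and 12.83, lay below all 8 other arrays, where the GST controls measured 13.71, 13.57 and 13.65 and the 5' dsRNA arrays 13.62 and 13.58. Acer measured 7.35, 7.01 and 6.90 in the GST controls and 7.06 and 6.92 with the 5' dsRNA, against 5.10 and 5.37 in the EGFP controls.

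Other genes fell in batch B and fell less, or had a change above 0, in batch A. These were CG33181 (-2.85, adjusted p = 0.00133), CG32985 (-2.73, adjusted p = 0.00176), cac (-1.94), CG32625 (-1.85), miple2 (-1.66), CG3036 (-1.63, adjusted p = 0.000234), CG3376 (-1.0), aub (-0.70) and Trax (-0.58). With values under 4 raised to 4 these were -2.58 for CG33181, -2.84 for CG32985 and -1.80 for cac. CG33181 was already under 4 on all 3 GST controls, at 3.04, 2.53 and 2.86, so no fall could be measured there. CG32985 measured 3.70, 3.67 and 4.30 in them. CG3376 was bright in all groups, at 10.86 in both EGFP controls and 8.50, 8.61 and 8.57 with the 3' dsRNA, against 11.35, 11.16 and 11.18 and then 9.85 and 10.01 in batch A.

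A further set changed more in batch A. Obp99c (2.33, adjusted p = 0.000417), Swim (2.13), LManI (1.78) and LManII (1.11) fell farther there, and Ids (-1.85, adjusted p = 0.000417), a lysosomal sulfatase gene, rose farther. Obp99c measured 8.39, 8.03 and 8.35 in the GST controls and 5.22 and 5.33 with the 5' dsRNA, against 8.82 and 8.75 and then 8.28, 8.11 and 8.02 in batch B. Swim started at 10.20, 9.75 and 9.76 in the GST controls but at 5.93 and 5.57 in the EGFP controls. It lay at 3.39 on each 3' dsRNA array, so its fall in batch B could not be measured in full. With values under 4 raised to 4 the difference was -1.87 for Ids. For Swim it was 2.74, but raising the values limits its change in batch B to -1.75, so this does not test the difference. LManI measured 2.44 on both 5' dsRNA arrays, and with values under 4 raised to 4 its difference was 0.22 (adjusted p = 0.546).

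Outside the gene probe sets, the array's spiked control for the bacterial gene dap gave a signal in batch B only. Its 3' probe set lay at 11.49 or higher on all 5 arrays of batch B and at 2.24 to 2.63 on the 5 arrays of batch A. The 3' lys control was likewise at 8.35 to 8.82 in batch B and 2.56 to 2.63 in batch A. These signals separated the batches and not the groups within batch B.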

How the results depend on the processing

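JIL-1 stayed lower and past the threshold under every alternative run. Of 118 other named genes 0 turned direction in the alternatives that measured them (95 of them with a mean above 6, 102 without cross-hybridising probe sets, 112 with the probe set chosen over all 10 arrays). Most were named for a call in these same arrays. The groups did not overlap in any called row, so leaving out 1 array could not turn its direction. Of the 1416 changed rows (627 higher, 789 lower), 354 (108 and 246) were called with no filter on dim probe sets and 2473 (1243 and 1230) with array weights. At least 1.5-fold were 458 (111 and 347), and at an adjusted p under 0.1 the rises were 1051. The fit with the replicate block called 914, of which 342 were higher, although the numbers were not shown to pair the samples. Leaving out 1 array gave 481 to 1294 changed rows, 137 to 551 higher and 343 to 743 lower. The 90 rows that differed between batches became 165 with array weights, 185 at an adjusted p under 0.1, 1 with the replicate block and 30 (without control replicate 5) to 69 (without JIL-1 replicate 3) with 1 array left out. The X gap of -0.094 was 0 with no filter, where most probe sets lie at the lower end of the scale, -0.10 at a mean above 6 and -0.078 without control replicate 4. Of the 118, 64 lost their call with no filter, 32 with the replicate block, 12 in 1 fit of all 10 arrays, and 15, 36, 18, 43 and 48 without JIL-1 replicate 3, 4, 5 and control replicate 4, 5. Of the 22 named differences between batches 0 turned direction, and 21 lost their call with the replicate block, 8 with no filter and 3 to 8 with 1 array left out. The cause of these shifts was not tested. With 5 arrays, small changes and values under 4 are the least certain.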
